A study of Mus musculus with 9 samples.

Results

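The transcripts described here encode heat shock chaperones, read in mouse liver after concanavalin A with and without MSA. Members were the rows whose gene name is Hspa1a, Hspa1b, Hspa8, Hsph1, Dnajb1, Hspb1, Hsp90aa1, Hspd1 or Hspe1. Of these 9 names, 6 matched a row among the 42188 genes of the table, namely Hspa1b, Hsph1, Dnajb1, Hspb1, Hspd1 and Hspe1. Hspa1a, Hspa8 and Hsp90aa1 are not analysed here. The set was put together as cytosolic chaperones, but Hspd1 and Hspe1 encode the chaperonin of the mitochondrial matrix, so the 6 are called heat shock chaperones below. All 6 passed the filter on low counts, together with 14603 genes in all.

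Whole liver RNA was sequenced from 9 wild-type mice, 3 in each of 3 groups. MSA_ConA mice received MSA intraperitoneally at 250 mg/kg and, 6 h later, concanavalin A at 20 mg/kg by tail vein. ConA mice received only the concanavalin A, a lectin from jack beans whose activation of T cells causes hepatitis in mice, at that dose. Control mice had a tail vein injection of phosphate-buffered saline. MSA is taken to be the mesaconate of the study's title, a dicarboxylic acid. Livers of concanavalin A mice were taken 12 h after the lectin. Per the labels every mouse was a male C57BL/6J (the strain tag reads C57BL/6), 8 weeks old and weighing 20 to 25 g, and each library has a number from 1 to 3 within its group.

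Heat shock chaperones bind unfolded stretches of other proteins and keep them from clumping. Hsp70 proteins such as the one encoded by Hspa1b do so in cycles of ATP binding and release, which J-domain proteins such as that of Dnajb1 start and nucleotide exchange factors such as that of Hsph1 end. Heat, oxidants and misfolded protein free the transcription factor HSF1 from chaperones, and HSF1 then binds arrays of the unit GAA and its reverse complement TTC, called heat shock elements, upstream of these genes. In unstressed liver the inducible members of the set are typically expressed at low levels.

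The libraries held 13294600 to 17276391 counts, and levels are given as CPM, counts scaled to a library of 1000000 after TMM adjustment of the totals. On that scale 1 count corresponds to 0.132, 0.0971 and 0.0746 CPM in MSA_ConA 1, ConA 1 and Control 1 and to 0.0516 to 0.0568 CPM in the 6 libraries numbered 2 or 3. Hepatocyte markers were abundant in all 9 libraries, with 8 of 10 listed genes in the table and a summed 108202 to 202533 CPM. The libraries divided by their number, against the labels. Xist, the RNA of the inactive X chromosome in females, did not exceed 0.485 CPM in any of the libraries numbered 1, against 667 to 1132 CPM in numbers 2 and 3, all labelled male. Nnt, a mitochondrial enzyme gene partly deleted in C57BL/6J, stayed within 29.8 to 34.7 CPM in number 1, against 168 to 266 CPM in numbers 2 and 3. The clock genes Arntl (22.1 to 29.6 CPM in number 1, against 1.35 to 3.60 CPM in numbers 2 and 3) and Dbp (6.02 to 10.3 CPM in number 1, against 99.9 to 251 CPM in numbers 2 and 3) divided the same way. Not all of the 12 listed clock genes did. Nr1d1 overlapped between the classes, at 89.3 to 119 CPM in number 1, against 105 to 151 CPM in numbers 2 and 3. Per1 had 357, 437 and 6.26 CPM in MSA_ConA 1, ConA 1 and Control 1, and Ciart had 34.0, 28.0 and 1.86 CPM in that order. The libraries numbered 1 were thus not alike in all clock genes. Sex, strain, time of day and any shared handling therefore cannot be told apart as sources of a difference between the number classes, and results below are given with all libraries and within numbers. Libraries are named by their labels.

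The promoters show what the members share outside the counts. RefSeq promoters (GRCm38.p6) were found for 7 of the 9 listed names, and the 250 bases before each annotated start were searched for 2 facing units, GAANNTTC or TTCNNGAA, which read the same on both strands. The stretches of Hspa1b and Hspb1 are shown because their counts differed most between libraries numbered 1. Capitals mark the 2 facing units; the Hspa1b stretch is chr17:34959239-34959488, minus strand, and the Hspb1 stretch is chr5:135887669-135887918, plus strand.
Hspa1b: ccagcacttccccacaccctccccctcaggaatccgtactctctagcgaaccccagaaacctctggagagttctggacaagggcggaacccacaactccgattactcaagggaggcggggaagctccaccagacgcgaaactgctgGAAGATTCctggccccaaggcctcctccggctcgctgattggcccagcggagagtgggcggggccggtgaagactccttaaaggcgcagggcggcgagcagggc
Hspb1: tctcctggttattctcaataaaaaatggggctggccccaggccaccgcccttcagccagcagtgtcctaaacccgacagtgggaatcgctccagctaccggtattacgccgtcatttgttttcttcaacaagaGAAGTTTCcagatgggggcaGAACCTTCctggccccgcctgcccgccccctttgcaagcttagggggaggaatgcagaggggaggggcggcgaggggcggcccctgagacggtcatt
Hspa1b held 1 match, from -104 to -97 relative to its start, and Hspb1 held 2, from -117 to -110 and from -97 to -90. The Hspa1a promoter differed from that of Hspa1b at 3 of 250 upstream bases and held the same match. Hspd1 has 2 annotated starts, and 1 of them faces away from that of Hspe1 and shares an interval with it. For Hsph1 and for this interval of Hspd1 and Hspe1, 30 bases around the matches are shown, since some annotated transcripts begin close by. The first is chr5:149636351-149636380 on the minus strand, and the second is chr1:55088053-55088082, written on the Hspe1 strand.
Hsph1: gggtagaatctTTCTCGAAggctcgagaag
Hspd1 and Hspe1: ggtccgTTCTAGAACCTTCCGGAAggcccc
Hsph1 held 1 match, from -33 to -26. The Hspd1 and Hspe1 interval held 3 overlapping matches, which together make 2 overlapping runs of 3 units (either motif extended by NNGAA or NNTTC so that the units alternate) between -89 and -72 of Hspe1. The 250 bases before the other annotated Hspd1 start held 0 matches, and no match to these letters lay in the window of Dnajb1. Of 32536 distinct promoters of that length, 12.9% held 2 facing units and 0.470% held a run of 3. A CCAAT box (CCAAT or ATTGG), the sequence bound by NF-Y, lay upstream of Hspa1b, Hsph1 and Dnajb1 and in 33.8% of all promoters.

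**Figure D1:**
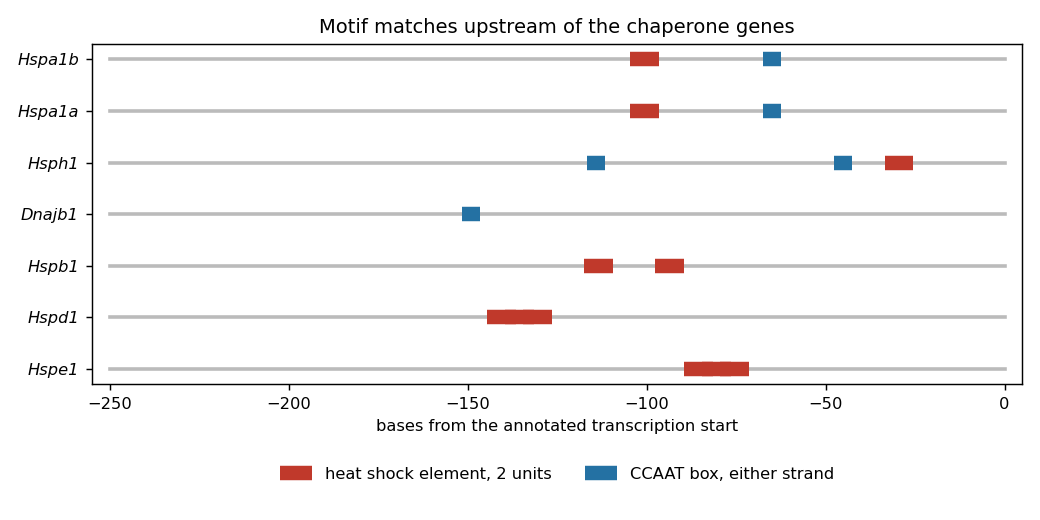
Positions of motif matches in the 250 bases upstream of the annotated start (x axis, bases; the start is at the right), 1 row per gene; red marks 2 facing heat shock units and blue a CCAAT box on either strand. Matches to the heat shock element lie between -144 and -26 in every gene shown but Dnajb1, and the Hspd1 and Hspe1 rows show the same genomic element read from the 2 starts. Hspd1 is drawn from the annotated start that shares this element, and its other annotated start has 0 matches.

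Several members have near-identical relatives in the genome, which limits what their counts mean. In GENCODE M21 transcripts, 62.3% of the 50-base words of Hspa1b also occur in Hspa1a, and none of the words of Hsph1 occur in another gene. For Hspb1 the share was 48.8%, all in the pseudogene Hsp25-ps1, for Hspd1 it was 39.7%, most of it in the pseudogene Hspd1-ps3, for Hspe1 18.4% and for Dnajb1 0.380%. How the authors' counting treated such reads is not given in the sources used here, so the values of Hspa1b, Hspb1 and Hspd1 are uncertain to that extent. In the deposited annotation (C57BL/6NJ assembly) Hspa1b lies on the minus strand at 17:36417181-36433579, a span of 16399 bases for 2803 exon bases. In GRCm38 the promoter window of Hspa1a lies on the same strand, at chr17:34972157-34972406. Whether the span takes in Hspa1a was not tested, so the row cannot be taken as Hspa1b alone. Hspb1 lies on the plus strand at 5:145720353-145725123 and overlaps an unnamed pseudogene model on the same strand at 5:145723192-145724990. Hspd1 (minus strand, 1:57052193-57072671) and Hspe1 (plus strand, 1:57072560-57075735) overlap at their starts, and without stated strand use their reads there cannot be told apart. Hsph1 lies on the minus strand at 5:161163128-161186514, and Dnajb1 on the plus strand at 8:87667947-87671674.

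By deposited FPKM, which divides by gene length, Hspe1 had the highest level of the 6 in all 9 libraries and Hspd1 the second highest. Mean FPKM over the 9 libraries was 116 for Hspe1 (range 73.9 to 233), 42.4 for Hspd1 (20.9 to 52.5), 15.9 for Dnajb1 (12.01 to 26.6), 14.4 for Hsph1 (1.43 to 22.6), 12.8 for Hspa1b (3.02 to 27.2) and 1.66 for Hspb1 (0 to 10.3). The ranges of Dnajb1, Hsph1 and Hspa1b overlap, and the order of these 3 changed from library to library.

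Hspa1b, the stress-inducible Hsp70, ranged more widely among libraries numbered 1 than among the others. It measured 8.31, 27.1 and 39.4 CPM in MSA_ConA 1, 2 and 3, against 76.1, 47.7 and 29.8 CPM in ConA 1, 2 and 3 and 21.0, 35.2 and 41.6 CPM in Control 1, 2 and 3. The library labelled ConA 1 was the highest of the 9 and MSA_ConA 1 the lowest, while the 3 groups overlapped. Mean levels were 25.0 ± 15.7 CPM in MSA_ConA, 51.2 ± 23.4 CPM in ConA livers and 32.6 ± 10.6 CPM in Control livers (SD, n = 3 each).

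Hsph1 encodes Hsp110, a nucleotide exchange factor that releases Hsp70 from its client and holds unfolded protein itself. It measured 10.2, 164 and 140 CPM in MSA_ConA 1, 2 and 3, against 44.8, 146 and 139 CPM in ConA 1, 2 and 3 and 46.8, 106 and 161 CPM in Control 1, 2 and 3. Every library numbered 1 (at most 46.8 CPM) lay under every library numbered 2 or 3 (at least 106 CPM), and MSA_ConA 1 was the lowest. Dnajb1, the J-domain protein Hsp40 that delivers clients to Hsp70, moved within a narrower range. Its levels were 33.2, 27.8 and 28.1 CPM in MSA_ConA 1, 2 and 3, against 60.0, 34.7 and 31.1 CPM in ConA 1, 2 and 3 and 31.7, 44.4 and 35.7 CPM in Control 1, 2 and 3. ConA 1 again stood highest.

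Hspb1, the small heat shock protein Hsp25 that holds unfolded proteins without ATP and is abundant in muscle, was near the detection floor in most livers. It had 2.11, 0 and 0.825 CPM in MSA_ConA 1, 2 and 3, against 10.6, 0.413 and 0 CPM in ConA 1, 2 and 3 and 1.12, 0.261 and 0.0521 CPM in Control 1, 2 and 3. These are 16, 0 and 16 counts in MSA_ConA, 109, 8 and 0 counts in ConA and 15, 5 and 1 counts in Control libraries, and a count of 0 allows up to 3 counts, or 0.166 CPM in MSA_ConA 2 and 0.171 CPM in ConA 3. On this TMM scale all 3 libraries numbered 1 lay above all 6 others, with ConA 1 highest. By library totals Control 1 and MSA_ConA 3 were about level, with 15 Hspb1 counts of 14137973 and 16 of 15357621. The overlapping pseudogene model followed the same order of classes, with 2.61 to 15.0 CPM in number 1, against 0.208 to 1.91 CPM in numbers 2 and 3. Skeletal muscle markers, all 14 of them in the table, summed to 121, 373 and 4975 CPM in MSA_ConA 1, 2 and 3, against 3.40, 399 and 68.9 CPM in ConA 1, 2 and 3 and 0.885 to 2.46 CPM in Control livers. In MSA_ConA 1 the calcium pump gene Atp2a1 alone made up 119 CPM of that sum, and 10 of the 14 markers were at 0. Hspb1 was highest in ConA 1, where muscle markers summed to 3.40 CPM, and the part of muscle RNA in the 0.825 CPM of MSA_ConA 3 was not tested.

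Hspd1 encodes Hsp60, the barrel of the mitochondrial chaperonin, and Hspe1 encodes Hsp10, its lid. Hspd1 measured 154, 197 and 166 CPM in MSA_ConA 1, 2 and 3, against 159, 187 and 191 CPM in ConA 1, 2 and 3 and 78.7, 130 and 184 CPM in Control 1, 2 and 3. Control 1 was the lowest library, and Control 3 lay within the range of the treated groups. Hspe1 measured 337, 133 and 123 CPM in MSA_ConA 1, 2 and 3, against 204, 129 and 109 CPM in ConA 1, 2 and 3 and 224, 168 and 125 CPM in Control 1, 2 and 3. On this TMM scale every library numbered 1 lay above every other library for Hspe1. By library totals it did not, since ConA 1 had 2105 Hspe1 counts of 15331294, against 3216 of 16233684 in Control 2. From 1 of the 2 annotated Hspd1 starts the 2 genes share a promoter interval, yet the ratio of Hspe1 to Hspd1 FPKM differed between libraries. It was 5.58, 1.72 and 1.89 in MSA_ConA 1, 2 and 3, against 3.26, 1.76 and 1.46 in ConA 1, 2 and 3 and 7.22, 3.29 and 1.72 in Control 1, 2 and 3. Control 2 (3.29) and ConA 1 (3.26) were about level, and the other libraries numbered 2 or 3 lay below.

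**Figure D2:**
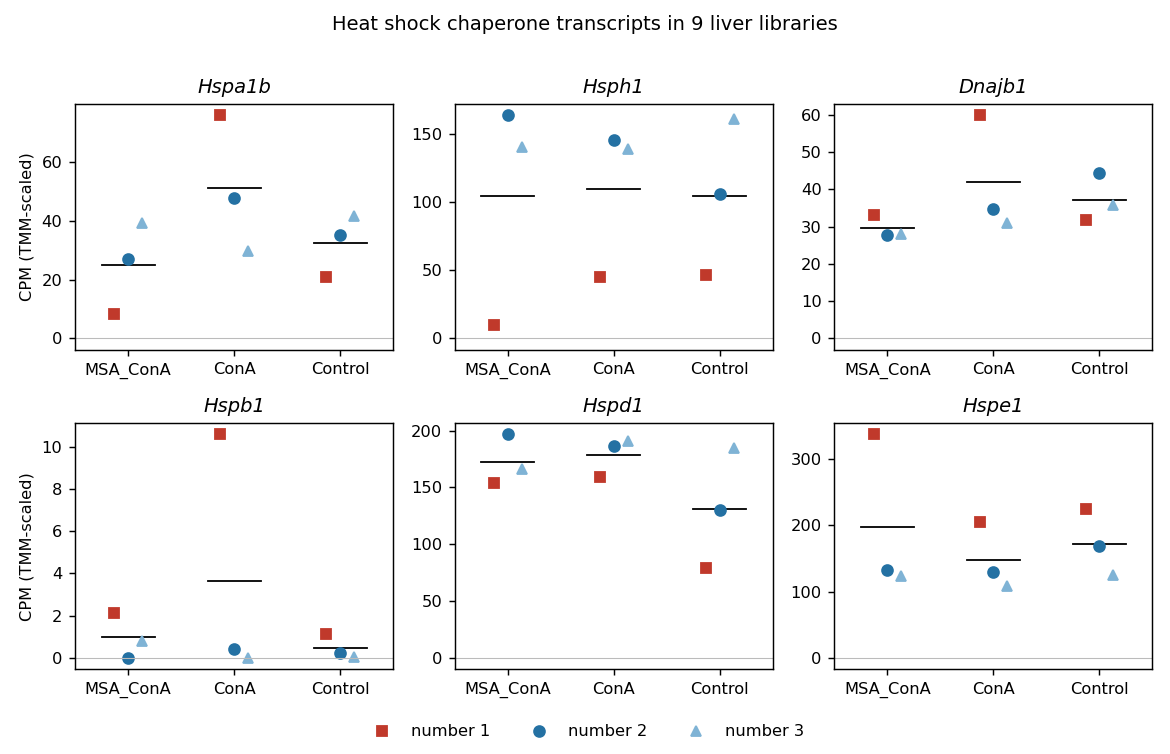
TMM-scaled CPM (y axis, linear, 1 scale per panel) of the 6 heat shock chaperones in MSA_ConA, ConA and Control livers; each marker is a library, its shape and colour give the library number, and the black line is the group mean. Red squares (number 1) lie below all other markers for Hsph1 and above them for Hspb1 and Hspe1, and the ConA 1 square is the highest for Hspa1b (76.1 CPM), Dnajb1 (60.0 CPM) and Hspb1 (10.6 CPM).

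The first question the design asks is whether concanavalin A, alone or after MSA, changed these transcripts. With all 9 libraries, edgeR's quasi-likelihood test called none of the 6 in MSA_ConA against ConA, in MSA_ConA against Control or in ConA against Control at a Benjamini-Hochberg adjusted p under 0.05. The background was 0 of 14603 genes, or 0%, in each comparison, with 248, 730 and 563 genes at an unadjusted p under 0.05 in that order of comparisons; DESeq2 called 0, 55 and 2 genes. For MSA_ConA against ConA, log2 fold changes were -1.03 (SE 0.58) for Hspa1b, -0.50 for Dnajb1, -0.07 for Hsph1, -0.05 for Hspd1, 0.42 for Hspe1 and -1.95 for Hspb1. For MSA_ConA against Control they were -0.38 for Hspa1b, -0.33 for Dnajb1, 0.00 for Hsph1, 0.39 for Hspd1, 0.20 for Hspe1 and 1.00 for Hspb1. For ConA against Control they were 0.65 (SE 0.57) for Hspa1b, 0.17 for Dnajb1, 0.07 for Hsph1, 0.45 for Hspd1, -0.22 for Hspe1 and 2.95 for Hspb1. The Hspb1 values have SEs of 1.94, 1.97 and 2.01 in that order of comparisons, and each changed sign when 1 library was left out, with a range of -1.11 to 4.45 for ConA against Control. The 3 comparisons share libraries in pairs and are not independent of each other. In whole tissue, fewer cells of a type and less RNA per cell cannot be told apart.

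Without the libraries numbered 1, the spread between libraries was smaller and the differences were small as well. On numbers 2 and 3 alone edgeR again called 0 genes in each of the 3 comparisons, Hspb1 was not tested, and Hspa1b had a log2 fold change of -0.20 (SE 0.26) for MSA_ConA against ConA and -0.0048 (SE 0.26) for ConA against Control. Dnajb1 gave the lowest adjusted p of the 5, 0.114 in edgeR, at -0.52 (SE 0.15) for MSA_ConA against Control, where both MSA_ConA libraries (27.8 and 28.1 CPM) lay below both Control libraries (44.4 and 35.7 CPM). Such differences were common in that fit. There, 3578 of 14851 genes had an unadjusted edgeR p under 0.05, and the lowest edgeR adjusted p of any gene was 0.0823.

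Number classes were compared next, and 3 of the 6 chaperones differed between them. In a fit with group and number class, 2785 of the 14603 genes had higher counts in number 1, a background of 19.1%, and 2807 were lower, 19.2%. Among the 6 chaperones 2 were higher and 1 was lower. Hspe1 was higher by 0.94 on the log2 scale (SE 0.21, edgeR adjusted p = 0.00974) and Hspb1 by 3.75 (SE 1.12, edgeR adjusted p = 0.0295). Hsph1 was lower, at -2.19 (SE 0.46, edgeR adjusted p = 0.00781). Hspb1 was not tested without the libraries numbered 1, so it could not pass the filter on low counts without them. Hspb1 therefore adds no support to the count of 2 higher. Estimates for Hspd1 (-0.48, edgeR adjusted p = 0.122), Hspa1b (-0.45, edgeR adjusted p = 0.497) and Dnajb1 (0.29, edgeR adjusted p = 0.347) did not pass the threshold under TMM. When libraries were scaled by their totals in place of TMM, the median of all genes in this comparison moved to -0.81 from a TMM value of -0.10, and the split became 1083 higher and 5449 lower; Hspe1 (0.20) and Hspb1 (3.01) then kept their sign and lost the call, at edgeR adjusted p of 0.396 and 0.0637, while Hspd1 (-1.21, edgeR adjusted p = 0.00211) was then called lower. Hspb1 also lost the call without ConA 1, 2 or 3 or Control 3, with edgeR adjusted p of 0.0559 to 0.169. Hspa1b was called lower, at -1.39 (edgeR adjusted p = 0.0312), without ConA 1, and Dnajb1 higher, at 0.56 (edgeR adjusted p = 0.0444), without Control 1.

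The second question is whether the effect of treatment itself differed between number classes. This was tested in a model with 6 means and 3 residual degrees of freedom, in which each lone library numbered 1 is assumed to vary like the pairs numbered 2 and 3. For MSA_ConA against ConA, Hspa1b differed by -2.97 on the log2 scale (SE 0.50, edgeR adjusted p = 0.00928) and Hsph1 by -2.24 (SE 0.40, edgeR adjusted p = 0.0114), both lower in number 1 than in numbers 2 and 3, against 10.1% of genes called lower; none of the 6 was called higher, against 8.59%. For ConA against Control, Hspa1b differed by 1.85 (SE 0.47, edgeR adjusted p = 0.0229) and Dnajb1 by 1.20 (SE 0.27, edgeR adjusted p = 0.0149), both higher in number 1, against 15.7% of genes called higher; none was called lower, against 15.4%. Under scaling by library totals the differences for MSA_ConA against ConA stayed past the threshold. Those for ConA against Control did not, at 1.30 (edgeR adjusted p = 0.0739) for Hspa1b and 0.67 (edgeR adjusted p = 0.115) for Dnajb1, and the split of calls over all genes went to 1325 higher and 4145 lower from a TMM split of 2287 and 2250.

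**Figure D3:**
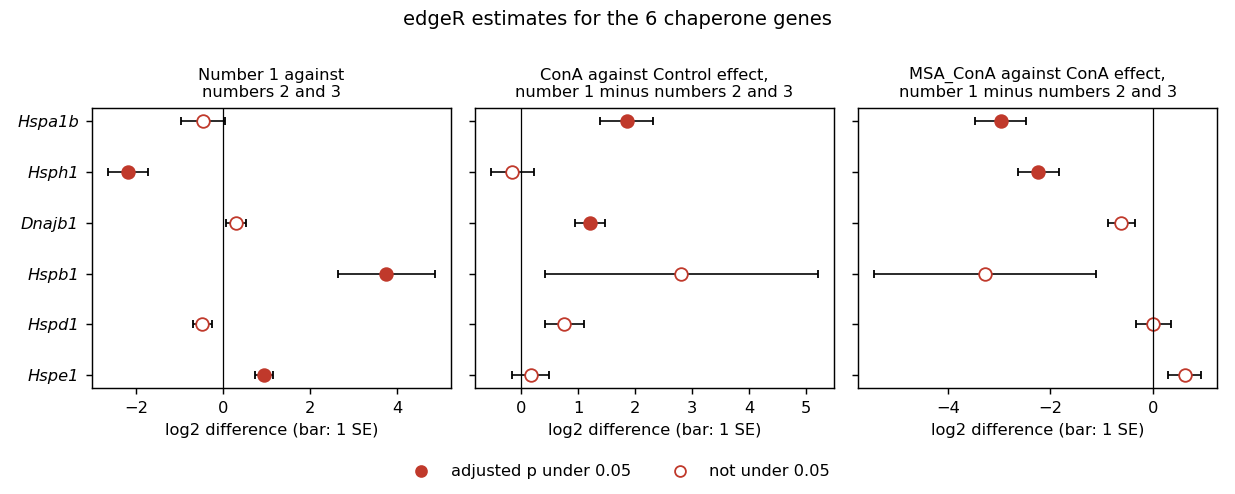
edgeR log2 differences with 1 SE (x axis) for the 6 heat shock chaperones in 3 tests; filled circles passed an adjusted p of 0.05 and open circles did not. Number 1 against numbers 2 and 3 (left) has filled circles for Hsph1 (-2.19), Hspb1 (3.75) and Hspe1 (0.94), and the other panels for Hspa1b and Dnajb1 (ConA against Control effect) and Hspa1b and Hsph1 (MSA_ConA against ConA effect).

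Ratios between single libraries of the same number show where these differences lie. They have no replicate check, and their exact 95% intervals cover counting error only. In number 1, Hspa1b in MSA_ConA was 9.16-fold lower than in ConA (interval 7.08 to 12.03), Hspb1 5.01-fold lower (2.95 to 9.08) and Hsph1 4.42-fold lower (3.46 to 5.70). Dnajb1 was 1.80-fold lower in MSA_ConA 1 than in ConA 1, Hspd1 stood at a ratio of 0.963, and Hspe1 was 1.65-fold higher in MSA_ConA 1. Thus 3 of 6 were at least 2-fold lower in MSA_ConA 1, against 18.5% of all genes that reached 10 CPM in either library, and 0 at least 2-fold higher, against 15.1%. Set against Control 1, MSA_ConA 1 had 4.60-fold less Hsph1 (3.63 to 5.91) and 2.52-fold less Hspa1b (1.91 to 3.37), so that 2 of the 5 with enough counts were at least 2-fold lower (background 17.6%) and 0 higher (23.3%). In ConA 1 over Control 1, Hspb1 was 9.46-fold higher (5.49 to 17.5), Hspa1b 3.63-fold (3.17 to 4.18), Hspd1 2.02-fold (1.87 to 2.19) and Dnajb1 1.89-fold (1.67 to 2.15), while Hsph1 (0.959) and Hspe1 (0.914) stayed near 1. That is 3 of 6 at least 2-fold higher, against 25.2% of genes, and 0 lower, against 17.4%. Hspb1 enters both counts of 3 of 6 only through its 10.6 CPM in ConA 1, so it adds no support to either. The 2 counts also share that library. Scaling by totals moves every number 1 log2 ratio by -0.24 for MSA_ConA over ConA, -0.73 for MSA_ConA over Control and -0.50 for ConA over Control, which takes Hspd1 in ConA over Control to 0.52 on the log2 scale and leaves 2 of 6 at least 2-fold higher. The same scaling takes Dnajb1 in MSA_ConA over ConA to -1.09, so that 4 of 6 are at least 2-fold lower there.

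In numbers 2 and 3 none of the 5 chaperones with at least 10 CPM reached 2-fold in any of the 3 comparisons. Hspa1b was 1.76-fold lower in MSA_ConA 2 than in ConA 2 and had a ratio of 1.32 for MSA_ConA 3 over ConA 3. Its ratios of ConA to Control were 1.36 in number 2 and 0.715 in number 3, on either side of 1. Hspd1 was higher in MSA_ConA and in ConA than in Control within numbers 1 (ratios of 1.95 and 2.02) and 2 (1.51 and 1.44), but not within number 3 (0.901 and 1.03).

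**Figure D4:**
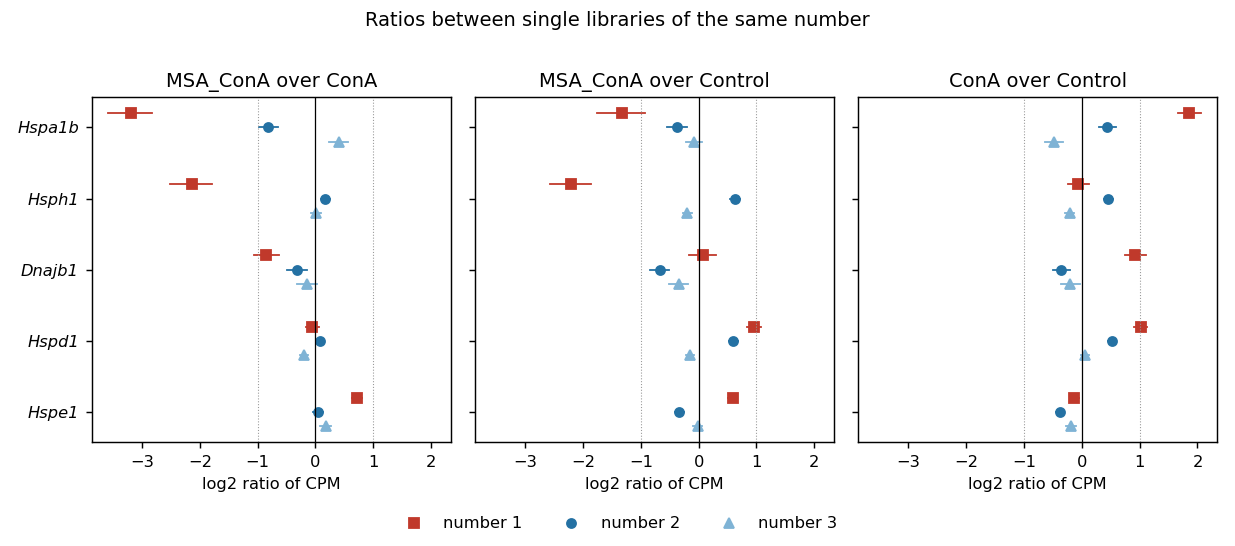
log2 ratios of TMM-scaled CPM (x axis) between single libraries of the same number for 5 chaperones (Hspb1, at 0 in some libraries, is left out); markers give the library number, horizontal lines exact 95% intervals for counting error, and dotted lines a 2-fold difference. Only red squares (number 1) lie beyond the dotted lines, with Hspa1b at -3.19 for MSA_ConA over ConA and 1.86 for ConA over Control.

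Some leukocyte transcripts also differed among the libraries numbered 1. The 12 leukocyte markers in the table (of 14 listed) summed to 68.9 CPM in MSA_ConA 1, 430 CPM in ConA 1 and 25.4 CPM in Control 1, and to 26.6 to 34.5 CPM in the 6 libraries numbered 2 or 3; 3 of the 12 were at 0 in at least 1 library. The neutrophil gene S100a9 had 28.5 CPM in MSA_ConA 1 and 262 CPM in ConA 1, against 1.64 CPM in Control 1. Together with S100a8 and Retnlg, also neutrophil genes, it summed to 53.0 CPM in MSA_ConA 1 and 395 CPM in ConA 1, against 2.61 CPM in Control 1. The other 9 markers summed to 15.8 CPM in MSA_ConA 1 and 35.6 CPM in ConA 1, against 22.8 CPM in Control 1. Among these 9 was Csf3r, also a neutrophil gene. Its ratio was 1.57 for ConA 1 over Control 1 and 0.905 for MSA_ConA 1 over Control 1. Csf3r thus did not share the rise of S100a8, S100a9 and Retnlg in MSA_ConA 1. Of the 12, 7 were higher and 4 lower in ConA 1 than in Control 1. Among those lower was the T cell gene Cd3e, at 0.485 CPM in ConA 1, against 0.746 CPM in Control 1 and 2.11 CPM in MSA_ConA 1. In ConA 1 and Control 1 a level of 3 counts is 0.291 and 0.224 CPM, so no direction is read from Cd3e. These markers, like Atp2a1, were singled out after their values were seen. The part of these cells in the chaperone values was not tested.

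The wider chaperone network was described from lists of its families that leave out the 9 names. None of the listed genes was called in the 3 group comparisons. Between number classes, counts were spread over both directions and depended on scaling. Over all genes 19.1% were higher and 19.2% lower (7.42% and 37.3% by library totals), and several of the shares below are near these. Of 18 tested Hsp90 genes and cochaperones 6 were higher and 2 lower in number 1 (3 and 7 by library totals), and of 13 subunits of the cytosolic chaperonin CCT and prefoldin 6 were higher and 1 lower (2 and 3 by totals). Of 21 J-domain cochaperones 1 was higher and 4 lower (0 and 13 by totals), and of 16 genes of the Hsp70 family and its exchange factors 3 were higher and 4 lower (1 and 6 by totals). Among 13 mitochondrial chaperones and proteases 4 were higher and 1 lower (1 and 3 by totals). The largest called difference among these families was that of Chordc1, a zinc-binding Hsp90 partner, at -2.71 (edgeR adjusted p = 0.00172), with 7.92, 81.0 and 69.7 CPM in MSA_ConA 1, 2 and 3, against 6.21, 64.3 and 68.9 CPM in ConA 1, 2 and 3 and 16.4, 44.9 and 62.2 CPM in Control 1, 2 and 3.

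HSF1, the factor that switches these genes on, is controlled mainly at the protein level, and its transcript is given for completeness. Hsf1 measured 11.3, 15.6 and 18.3 CPM in MSA_ConA 1, 2 and 3, against 45.4, 20.7 and 16.4 CPM in ConA 1, 2 and 3 and 35.8, 23.1 and 21.7 CPM in Control 1, 2 and 3. Its MSA_ConA against ConA effect was lower in number 1 by -1.87 (SE 0.31, edgeR adjusted p = 0.00861), as it was for Hspa1b and Hsph1. Bag3 encodes a cochaperone that links Hsp70 to small heat shock proteins. It had 125, 33.8 and 44.9 CPM in MSA_ConA 1, 2 and 3, against 129, 46.9 and 33.6 CPM in ConA 1, 2 and 3 and 28.1, 44.7 and 48.0 CPM in Control 1, 2 and 3, and its ConA against Control effect was higher in number 1 by 2.40 (edgeR adjusted p = 0.00405).

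Hspb8, the small heat shock protein that works with Bag3, measured 1376 CPM in MSA_ConA 1, 1063 CPM in ConA 1 and 171 CPM in Control 1, and 155 to 181 CPM in the 6 libraries numbered 2 or 3. Its ConA against Control effect was higher in number 1 by 2.70 (edgeR adjusted p = 0.000911). Fkbp5, an Hsp90 cochaperone that glucocorticoids induce, had 240 CPM in MSA_ConA 1, 186 CPM in ConA 1 and 17.6 CPM in Control 1, with the same effect higher by 3.44 (edgeR adjusted p = 0.00144). Hsp90ab1, the constitutive cytosolic Hsp90, had 653 CPM in MSA_ConA 1, 1039 CPM in ConA 1 and 912 CPM in Control 1, and no test of it passed the threshold.

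For chaperones of the endoplasmic reticulum, the MSA_ConA against ConA effect was compared between number classes. Of 16 tested, 5 were higher in number 1 and 0 lower, against 8.59% higher and 10.1% lower over all genes, with a median of 1.16 against -0.01 for all genes. By library totals 3 were higher and 0 lower, against 5.22% and 14% of all genes. Sdf2l1, a cofactor of the Hsp70 of this compartment, was one of them, at 2.36 (edgeR adjusted p = 0.0220). Hspa5, which encodes that Hsp70 (BiP), measured 4579, 999.6 and 994 CPM in MSA_ConA 1, 2 and 3, against 2036, 1063 and 934 CPM in ConA 1, 2 and 3 and 641, 659 and 1122 CPM in Control 1, 2 and 3. Its ConA against Control effect was higher in number 1 by 1.50 (edgeR adjusted p = 0.0386), and the difference of 1.17 for MSA_ConA against ConA did not pass (edgeR adjusted p = 0.105). Hspa5 was the only 1 of the 16 called higher for ConA against Control, and 1 was lower, with a median of -0.30. Over all genes 15.7% were higher and 15.4% lower. By library totals 0 of the 16 were higher and 7 lower, against 9.07% and 28.4% of all genes, so the Hspa5 call was lost. In MSA_ConA 1 the highest Hspa5 level thus stood beside the lowest Hspa1b and Hsph1 levels of the 9 libraries. The cold-inducible RNA-binding genes Cirbp and Rbm3 had 81.5 and 33.5 CPM in MSA_ConA 1, 38.5 and 53.1 CPM in ConA 1 and 20.8 and 22.3 CPM in Control 1.

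**Figure D5:**
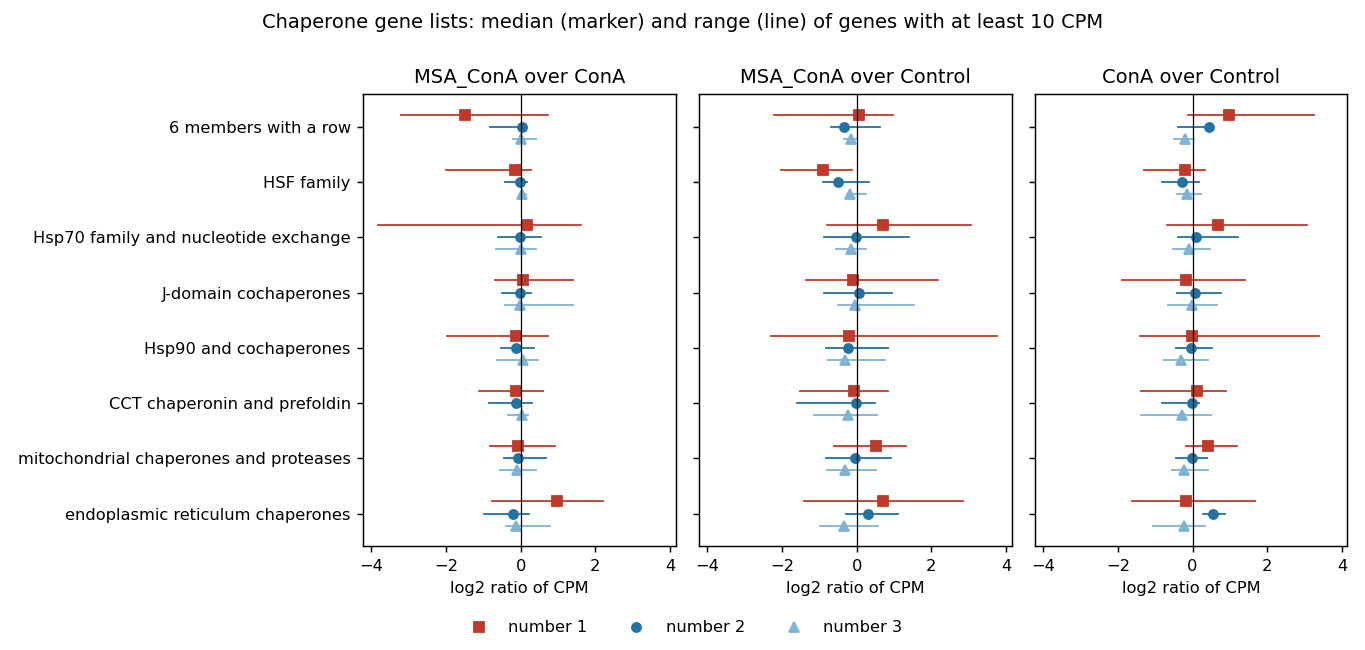
log2 ratios of TMM-scaled CPM (x axis) between single libraries of the same number for 8 gene sets; the marker is the median and the line the range over genes that reached 10 CPM in either library, and shape and colour give the number. Ranges of the sets drawn are widest in number 1, where the median of the 6 chaperones is -1.50 and that of endoplasmic reticulum chaperones 0.99 for MSA_ConA over ConA. The listed small heat shock proteins are not drawn. Their MSA_ConA over ConA range was widest in number 3, at 0.0086 to 5.23 over 4 genes (median 3.28), against 0.37 to 1.63 over 2 genes in number 1.

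The 6 chaperones did not share 1 pattern over the 9 libraries. Pearson r of log2(CPM + 1) ran from -0.96 for Hsph1 with Hspe1 to 0.70 for Dnajb1 with Hspb1, and was 0.62 for Hspa1b with Hsph1 and -0.54 for Hspd1 with Hspe1. These are descriptions over 9 libraries that share the division by number. The named genes outside the set with the highest r to the mean of the 6 standardised profiles were Il18r1 (0.986), Plekho2 (0.979), Trmt61a (0.970), Limk1 (0.963), Anp32b (0.958) and Urb1 (0.957), over the same 9 libraries.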

How the data were processed

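Liver RNA was taken up in Trizol and made into libraries with an Illumina kit, per the labels' protocols. The authors deposited raw counts per gene and FPKM (counts divided by gene length and an effective library total; this held within 0.1% for 100% of values). Bowtie 0.12.2, mm8 and mm10 are named, with no role given, per the submitters' processing notes; how RNA was selected and reads were counted is not given in the sources used here. Gene coordinates are those of the C57BL/6NJ assembly, per the file headers and identifiers. GENCODE M21 and RefSeq (both GRCm38) served for shared 50-base words and promoters only.

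Groups came from the titles, and columns headed M were matched to MSA_ConA. Members and the 14 lists (164 of 173 entries in the table) were chosen with earlier results of these data known. Counts were fitted with edgeR 4.0.16 (R 4.3.3): TMM, expression filter by group, quasi-likelihood test, Benjamini-Hochberg adjustment over 14603 genes, threshold 0.05. CPM in the text are TMM-scaled. The labels do not say more than 3 mice a group, so p-values reflect only how far these libraries differ. Alternatives, with DESeq2 1.42.0 and limma 3.58.1 among them, are in the closing section; limma used log2(FPKM + 1) or log2(FPKM + 0.1). Scripts were tested on simulated counts.

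A naming rule took all members, Hsf1, Bag3, Hsp90ab1, Hspa5, Cirbp, Rbm3 and the 6 genes most like the set. From each list it took up to 2 highest and 2 lowest ConA over Control ratios in number 1. These ratios needed at least 10 CPM in the higher library. The text does not follow the rule fully. Some genes that met it, such as Tef, are left out, and others, such as Xist, Arntl, Nr1d1, Cd3e, Retnlg and Atp2a1, are given outside it. Deviations from group means correlated at 0.489 to 0.720 among libraries numbered 1, 0.364 to 0.575 among those numbered 2 and 0.337 to 0.493 among those numbered 3, all over 0.1, the bound for taking numbers as pairs; between numbers 2 and 3 the range was 0.332 to 0.706. Deviations within a group sum to 0, so with number 1 apart those of numbers 2 and 3 move together. Values over 0.1 therefore cannot show that libraries numbered 2, or those numbered 3, are pairs. Intervals are exact and cover counting error only.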

Additional observations from a re-analysis of the deposited data

Results flagged for a closer look

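In 4 cases the effect of treatment on a chaperone gene differed between the library numbered 1 and those numbered 2 and 3, in the test of that difference itself. Hspa1b differed by -2.97 on the log2 scale for MSA_ConA against ConA (edgeR adjusted p = 0.00928), with ratios of 0.109 in number 1, 0.569 in number 2 and 1.32 in number 3. Hsph1 differed by -2.24 for the same comparison (edgeR adjusted p = 0.0114), with ratios of 0.226, 1.13 and 1.01 in numbers 1, 2 and 3. For ConA against Control, Hspa1b differed by 1.85 (edgeR adjusted p = 0.0229), with ratios of 3.63, 1.36 and 0.715, and Dnajb1 by 1.20 (edgeR adjusted p = 0.0149), with ratios of 1.89, 0.781 and 0.871 in numbers 1, 2 and 3. Each rests on 1 library per group in number 1. Scaling by library totals ended both calls for ConA against Control, at 1.30 (edgeR adjusted p = 0.0739) for Hspa1b and 0.67 (edgeR adjusted p = 0.115) for Dnajb1, and neither of those for MSA_ConA against ConA. Such calls were common over all genes in the same model, at 4537 of 14603 for ConA against Control and 2724 for MSA_ConA against ConA.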

How the results depend on the processing

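No chaperone gene was called in a group comparison under any of the alternatives run; DESeq2 called 2 genes for ConA against Control and 55 for MSA_ConA against Control over all genes. Under the replicate block of library number 0 genes were called in each group comparison. Leaving out 1 library at a time left 4016 to 8145 genes called between number classes, and 2 to 4 of the 6 chaperones. Scaling by library totals left 0 chaperones called in the test of the ConA against Control effect between number classes. The sum of Hspa1a and Hspa1b was not run, since Hspa1a has no row here; adding the counts of the overlapping model to Hspb1, chosen after seeing the data, changed no call of the 6.

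Of the uncalled log2 fold changes, some changed sign. For ConA against Control they did so on numbers 2 and 3 alone for Hspa1b (-0.0048) and Dnajb1 (-0.30), and by library totals for Dnajb1 (-0.0469). For MSA_ConA against ConA, Hsph1 changed sign by library totals (0.0322) and on numbers 2 and 3 (0.11). For MSA_ConA against Control, Hspe1 did by totals (-0.12) and on numbers 2 and 3 (-0.19), and Hsph1 without a filter (-0.0050), with the replicate block (-0.44), with number class as a term (-0.44), with limma-voom (-0.56) and with limma on log2(FPKM + 1) (-0.40) or log2(FPKM + 0.1) (-0.55). Library totals also turned Dnajb1 between number classes (-0.45), Hspe1 in the ConA against Control effect (-0.37), Hspd1 in the MSA_ConA against ConA effect (-0.28), and the number 1 log2 ratios of MSA_ConA over Control for Dnajb1 (-0.67) and Hspe1 (-0.14). The cause was not tested.

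Leaving out 1 library gave these ranges where a sign changed. For ConA against Control they were -0.53 to 0.0031 for Hspe1, -0.28 to 0.51 for Hsph1, -0.18 to 0.33 for Dnajb1 and -1.11 to 4.45 for Hspb1. For MSA_ConA against ConA they were -0.17 to 0.0210 for Hspd1, -0.20 to 0.72 for Hspe1, -0.55 to 0.47 for Hsph1 and -3.09 to 2.09 for Hspb1. For MSA_ConA against Control they were -0.43 to 0.43 for Hspe1, -0.48 to 0.54 for Hsph1, -0.88 to 0.0243 for Hspa1b and -0.15 to 2.51 for Hspb1. Between number classes they were -1.39 to 0.15 for Hspa1b and -0.0422 to 0.56 for Dnajb1. Hspb1 is limited by depth, at 0 to 16 counts in every library but ConA 1.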

Other observations

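Hsp90aa1 has no row of that name here, but a gene model that the authors' pipeline added, on the minus strand of chromosome 12 (12:116454580-116456083, C57BL/6NJ assembly), is described in the authors' deposited table as closest to HSP 90-alpha. It is not counted among the 6 and was singled out after its values were seen. It measured 137, 110 and 115 CPM in MSA_ConA 1, 2 and 3, against 163, 86.4 and 78.0 CPM in ConA 1, 2 and 3 and 80.1, 68.5 and 80.3 CPM in Control 1, 2 and 3. All 3 MSA_ConA libraries lay above all 3 Control libraries, and the ConA libraries overlapped both groups. The log2 fold change for MSA_ConA against Control was 0.66 (SE 0.35, edgeR adjusted p = 0.937), and 0.60 (SE 0.15, edgeR adjusted p = 0.0888) in numbers 2 and 3 alone, so neither passed the threshold. Its ConA against Control effect was higher in number 1 by 0.88 (edgeR adjusted p = 0.0370) and by 0.34 (edgeR adjusted p = 0.313) when libraries were scaled by totals. Its MSA_ConA against ConA effect was lower in number 1, at -0.70 (edgeR adjusted p = 0.0988), and at -0.98 by totals (edgeR adjusted p = 0.0343), which passed the threshold.

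Hspb6, a small heat shock protein of muscle, measured 23.7, 12.4 and 55.1 CPM in MSA_ConA 1, 2 and 3, against 7.67, 10.01 and 8.64 CPM in ConA 1, 2 and 3 and 21.8, 8.25 and 6.97 CPM in Control 1, 2 and 3. Its highest library, MSA_ConA 3, was also that with the highest summed skeletal muscle markers (4975 CPM), and the part of muscle RNA in it was not tested.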
